A study of Homo sapiens with 8 samples.

Results

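Replication-dependent histone genes encode the core and linker histones that package newly made DNA, and 3 of them, H4C2, H2AC11 and H4C8, were followed here in RNA enriched by immunoprecipitation of N4-acetylcytidine (ac4C). The 3 genes were taken by symbol, and their values were those of every peak overlapping their annotated spans on GRCh38. Each gene had 1 such peak, so the set held 3 of the 31395 peaks in the tables. The cells were the human osteosarcoma lines HOS and 143B, the latter a derivative of HOS, carrying either a control construct (NC) or a knockout of NAT10 (sgNAT10), the acetyltransferase that writes ac4C. The labels list 8 samples, an acRIP and an input for each line and genotype, and the 4 acRIP libraries were used here. Each line and genotype had 1 acRIP library, and whether a knockout line was a single clone was not stated. The values are raw read counts per peak interval, and CPM values are those counts scaled with TMM factors. Intervals given with values are 95% intervals for counting error only, as each line and genotype had 1 library. The reads carry no molecular identifiers and cannot be counted as separate molecules, so even these intervals may be too narrow.

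Each S phase calls for a burst of histone protein, and the mRNAs of these genes accumulate with DNA replication and are degraded when it ends. They are short, without introns, and in place of a poly(A) tail they usually end in a stem-loop bound by the protein SLBP and formed with the help of the U7 small nuclear ribonucleoprotein. Histone variant genes such as those of H2A.Z and H3.3 are instead expressed outside S phase from ordinary polyadenylated mRNAs. Per the labels the RNA was selected for poly(A) before the immunoprecipitation, which usually leaves out much of the replication-dependent histone mRNA. The amount of a histone mRNA in a culture moves with the share of cells in S phase as well as with the amount per cell, and the 2 cannot be told apart in these bulk libraries. A count after immunoprecipitation also mixes RNA level with enrichment, and input libraries were not used here.

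The sequences below show the 150 bases before the annotated start of the 3 genes, whose values were lower in sgNAT10 in both lines, and of H2BC12, a replication-dependent H2B gene whose values were not. They were taken from RefSeq (GRCh38.p14) and are written 5′ to 3′ in the direction of the gene. Capitals mark matches on either strand to 3 motifs, the TATA box TATAAA, the CCAAT box CCAAT and the octamer ATTTGCAT known from H2B promoters, and neighbouring or overlapping matches run together.
H4C2, chr6:26027284-26027433, minus strand: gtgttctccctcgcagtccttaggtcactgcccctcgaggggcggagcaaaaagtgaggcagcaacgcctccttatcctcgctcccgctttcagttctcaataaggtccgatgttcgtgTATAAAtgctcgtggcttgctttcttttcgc
H4C8, chr6:26285535-26285684, minus strand: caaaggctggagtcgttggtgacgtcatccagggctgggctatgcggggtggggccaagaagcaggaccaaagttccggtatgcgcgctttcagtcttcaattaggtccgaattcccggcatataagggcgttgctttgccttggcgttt
H2AC11, chr6:27132893-27133042, plus strand: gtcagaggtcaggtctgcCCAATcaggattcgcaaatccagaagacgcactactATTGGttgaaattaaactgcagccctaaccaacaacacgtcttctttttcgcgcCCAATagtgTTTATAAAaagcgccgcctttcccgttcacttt
H2BC12, chr6:27146859-27147008, minus strand: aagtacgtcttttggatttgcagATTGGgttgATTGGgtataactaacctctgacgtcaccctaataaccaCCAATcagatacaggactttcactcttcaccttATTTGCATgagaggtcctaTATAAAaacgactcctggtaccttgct

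TATAAA began 31 bases upstream of the start in H4C2 and in H2AC11 and 27 bases upstream in H2BC12. In H2AC11 it overlapped its own reverse complement, which began 33 bases upstream. H2AC11 held 3 CCAAT matches, at 42, 96 and 132 bases upstream, and H2BC12 held 3 as well, at 79, 118 and 127 bases. The octamer was found in the window of H2BC12, 46 bases upstream, and in none of the windows of H4C2, H4C8 and H2AC11. The window of H4C8 held none of the 3 motifs in these exact letters. Over all 35116 windows of the same length in the table, 6.71% held TATAAA, 23.5% held CCAAT and 0.988% held the octamer. Of the 65 replication-dependent histone genes with a window, 36 held TATAAA, 55 held CCAAT and 20 held the octamer. A match describes letters and is not a bound site.

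The peaks lay inside the short gene spans and reached neither end. The H4C2 peak (chromosome 6, 26027013 to 26027202, Gene ID 8366) covered bases 81 to 270 after the start of a gene of 388 bp and ended 117 bp before its finish. The H4C8 peak (26285213 to 26285405, Gene ID 8365) lay 129 to 321 bp from the start of a 409 bp gene. The H2AC11 peak (27133135 to 27133263, Gene ID 8969) lay 92 to 220 bp from the start of a 493 bp gene. The peaks thus covered 48.7% of H4C2, 46.9% of H4C8 and a smaller share of H2AC11. These genes have a single exon, so the intervals are exonic. The tables do not say whether interval starts count from 0 or from 1, and positions are printed as deposited.

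**Figure D1:**
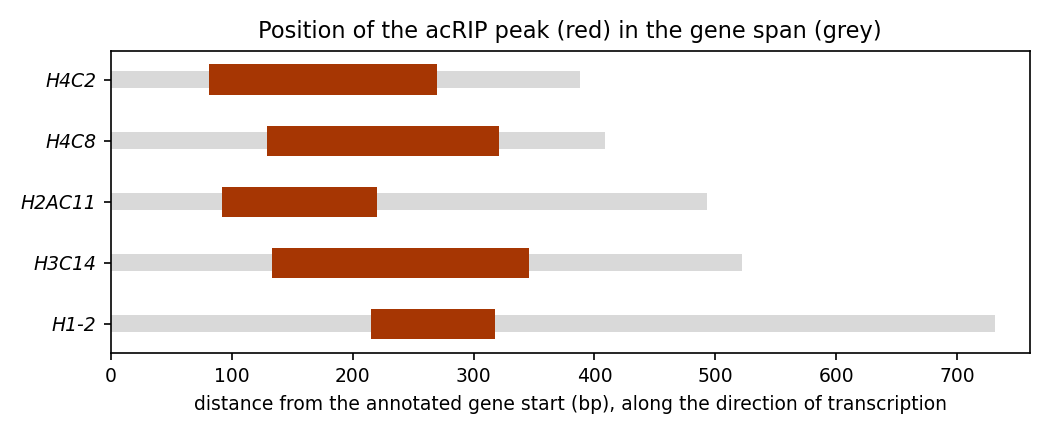
Each grey bar is the annotated span of a gene and each red bar the interval of its acRIP peak, in bp from the gene start along the direction of transcription. The 5 histone genes shown are those under 1000 bp with a known strand, and in each the peak lies within the gene, from 81 bp after the start in H4C2 to 412 bp before the finish in H1-2.

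Totals over all peaks ranged from 20107718 to 24785306 counts per library, and TMM factors from 0.729 to 1.26. The rRNA block on chromosome 21 took 34.0% to 60.3% of the counts of a library, most in HOS NC. The 143B library labelled sgNAT10 stood apart, with Spearman correlations across peaks of 0.583 to 0.718 with the other libraries, against 0.803 to 0.865 among those. The single peak of NAT10 itself had 65 counts in 143B NC and 130 in the 143B library labelled sgNAT10, and 180 and 63 in HOS. Its log2 shift, log2 CPM in sgNAT10 minus that in NC, was therefore 0.49 (0.06 to 0.95) in 143B and -1.85 (-2.31 to -1.45) in HOS. The NAT10 values of 143B thus run against its label, at 1 peak that ended 101 bp before the gene finish. Of 883 protein-coding peaks of mean count 50 or above within 500 bp of the finish only, 85.5% had a positive 143B shift. Their median shifts were 0.81 in 143B and -0.69 in HOS. The part of peak position in the NAT10 values was not tested. Of 9 osteosarcoma and mesenchymal markers 5 had a peak, VIM, RUNX2, SPARC, ALPL and CDH2, with summed CPM of 280 to 1011 per library, while COL1A1, COL1A2, SPP1 and TWIST1 had none. Of 4 blood markers 1 had a peak, with a CPM of at most 0.779, and neither endothelial marker had one. Of 4 epithelial markers 3 had a peak, the keratin genes KRT8 and KRT18 and CDH1, with summed CPM of 64.1 to 121. CDH1, the gene of E-cadherin, had 5 (NC) and 812 (labelled sgNAT10) counts in HOS, the pair with the larger histone shifts, and 30 and 7 in 143B. The part of this difference in the histone values was not tested.

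All 3 member peaks were lower in the library labelled sgNAT10 than in NC of the same line, by 1.63-fold to 2.31-fold in 143B and by 3.27-fold to 4.02-fold in HOS. H4C2, which encodes histone H4, had 703 counts in 143B NC and 430 in the 143B library labelled sgNAT10, and for HOS the counts were 1384 and 501. In CPM these were 35.3, 15.2, 76.6 and 21.6 in the same order. The H4C2 shift was -1.21 (-1.39 to -1.04) in 143B and -1.82 (-1.97 to -1.67) in HOS. Both libraries labelled sgNAT10 thus lay below both NC libraries for this gene.

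H2AC11 encodes histone H2A, the partner of H2B in the outer faces of the nucleosome. Its counts in the 143B pair were 760 (NC) and 562 (labelled sgNAT10), and in the HOS pair 1661 and 528, or 38.1, 19.9, 91.9 and 22.8 CPM. The shift of H2AC11 was -0.94 (-1.10 to -0.78) in 143B and -2.01 (-2.15 to -1.87) in HOS, the largest of the 3 in HOS. H4C8, a second gene of histone H4, had 1024, 887, 2049 and 801 counts in that order, or 51.4, 31.4, 113 and 34.6 CPM. Its shift was -0.71 (-0.84 to -0.58) in 143B and -1.71 (-1.83 to -1.59) in HOS. For both genes, too, the libraries labelled sgNAT10 lay below both NC libraries, and HOS NC was the highest.

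**Figure D2:**
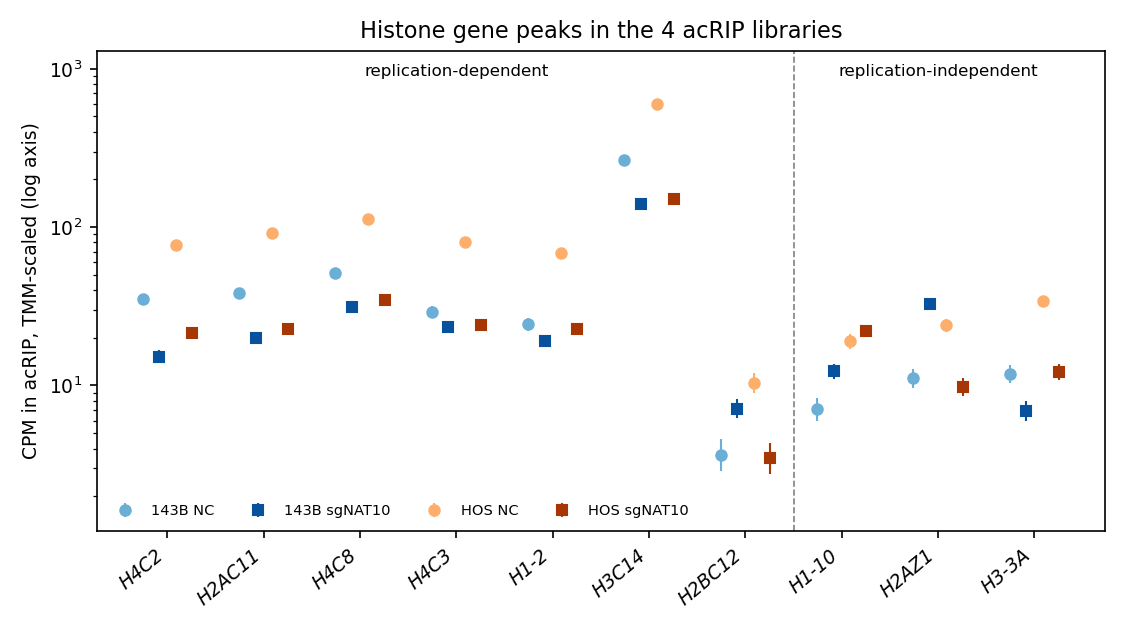
CPM of each histone gene peak in acRIP on a log axis, with circles for NC and squares for sgNAT10, 143B in blue and HOS in orange, and bars giving the exact 95% Poisson interval of the count. The first 6 genes are lowest in the libraries labelled sgNAT10, H4C2 at 15.2 and 21.6 CPM against 35.3 and 76.6 in NC, while H1-10 is higher in sgNAT10 than in NC of each line.

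No peak passed the test of genotype across both lines, and the histone peaks were no exception. Across 24467 peaks, edgeR's quasi-likelihood test (cell line as block, Benjamini-Hochberg adjustment) called 0 peaks (0.00%) at an adjusted p of 0.05, with 939 at an unadjusted p under 0.05. DESeq2 called 0 as well (500 unadjusted) and limma-trend 0 (1082 unadjusted). The edgeR log2 fold change was -1.52 (SE 0.78, adjusted p = 0.981) for H4C2, -1.47 (SE 0.78, adjusted p = 0.981) for H2AC11 and -1.21 (SE 0.74, adjusted p = 0.981) for H4C8, each lower in 2 of 2 lines. The fit had 1 residual degree of freedom, because the lines are the only repeats, and within a line no test was possible.

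Read against all genes, the HOS values stood farther out than those of 143B. In HOS 3 of 3 member genes were lower by 2-fold or more, where 12.8% of the 8060 gene sums tested were. In 143B 1 of 3 was, H4C2, where 17.7% of gene sums were, and the same gene was the only member lower by 2-fold or more in both lines, where 1.60% of gene sums were. This 143B call depends on scaling. Under library totals alone (11.9% of all gene sums) and upper quartile factors (13.9%) it held for 0 members. Under DESeq2-type factors (19.3%) it held for H2AC11 beside H4C2. The median shift of the 3 members was -0.94 in 143B and -1.82 in HOS, and that of all gene sums 0.17 and 0.04. Of the tested peaks in protein-coding genes, 1.73% had a lower HOS shift than H4C2, 0.995% a lower one than H2AC11 and 2.48% a lower one than H4C8. In 143B these shares were 24.9%, 31.7% and 37.8%. Among the 846 protein-coding gene sums with a mean count of 500 or more, to which all 3 members belong, the median shift was -0.63 in 143B and -0.23 in HOS, with 38.2% lower by 2-fold or more in 143B and 16.9% in HOS.

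**Figure D3:**
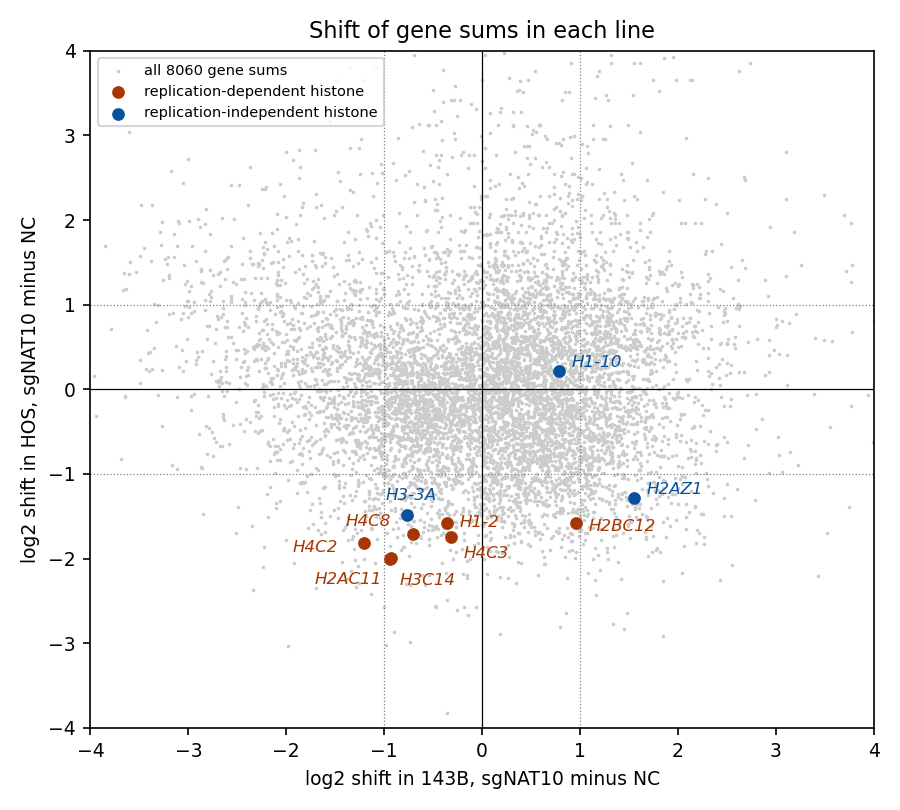
Each point is the summed peaks of 1 gene, with the log2 shift, sgNAT10 minus NC, in 143B on the horizontal axis and in HOS on the vertical axis. Dotted lines mark 2-fold changes, and 76 gene sums lie outside the plotted range. All 7 replication-dependent histone genes (red) lie between -2.01 and -1.58 in HOS, and 6 of them lie below 0 in 143B.

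The members were compared with each other by ratios within a library, which no scaling can change. The count of H4C2 over that of H4C8 was 0.687 in 143B NC and 0.485 in 143B labelled sgNAT10, a log2 change of -0.50 (-0.72 to -0.29). In HOS the same ratio was 0.675 and 0.625, a change of -0.11 (-0.30 to 0.08), an interval that includes 0. H4C2 over H2AC11 changed by -0.27 (-0.51 to -0.04) in 143B and by 0.19 (-0.02 to 0.39) in HOS. H2AC11 over H4C8 changed by -0.23 (-0.43 to -0.02) in 143B and by -0.30 (-0.48 to -0.11) in HOS. These intervals cover counting error only, and no test compared the lines with each other.

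Both H4 genes and H2AC11 were well covered by the standards of these libraries. Per kb of peak, H2AC11 had 298 CPM in 143B NC and 718 in HOS NC, H4C8 had 268 and 590, and H4C2 had 187 and 405. The order of these levels, H2AC11 above H4C8 above H4C2, was the same in both NC libraries. In the libraries labelled sgNAT10 the levels were 155 and 178 for H2AC11 and 164 and 180 for H4C8. H2AC11 thus lay below H4C8 there, by a gap within counting error, and H4C2 remained lowest at 80.6 and 115. The change of H2AC11 over H4C8 from NC, given above, exceeded counting error in both lines. Ranked by CPM per kb among the tested peaks of protein-coding genes, the 3 peaks lay between percentiles 97.4 and 99.2 in the NC libraries and between 94.2 and 97.3 in those labelled sgNAT10.

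The control cells of the lines also differed at these genes. In log2 CPM, HOS NC exceeded 143B NC by 1.12 (0.99 to 1.25) at H4C2, 1.27 (1.14 to 1.39) at H2AC11 and 1.14 (1.03 to 1.25) at H4C8. Between the libraries labelled sgNAT10, HOS exceeded 143B by 0.51 (0.32 to 0.70), 0.20 (0.02 to 0.37) and 0.14 (0.00 to 0.28). All 7 replication-dependent histone genes with a peak were higher by 2-fold or more in HOS NC than in 143B NC, where 18.8% of gene sums were, and 0 of 7 between the libraries labelled sgNAT10, where 20.1% were. The first count depends on scaling: under library totals alone it was 3 of 7, with 0 of the 3 members, where 5.67% of gene sums were, and under upper quartile factors 4 of 7, with 1 member, where 10.4% were. Under TMM factors, 4 of 4 replication-independent variant gene sums were also higher by 2-fold or more in HOS NC than in 143B NC. Under library totals alone 2 of 4 were. With TMM factors so were 8 of 15 gene sums of histone chaperones, 5 of 21 of S phase genes and 3 of 12 of histone mRNA factors. The HOS NC library enters the comparison of NC libraries and the HOS shift alike.

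Of 70 replication-dependent histone genes listed, 7 were overlapped by a peak, and of all 59792 annotated genes 15.2% were assigned one. The annotated genes include many that do not code for protein, and assignment is stricter than overlap, so these shares are not like for like. The 7 were 1 of 6 H1 genes, 1 of 17 H2A genes, 1 of 18 H2B genes, 1 of 14 H3 genes and 3 of 15 H4 genes. By position these were 6 of 55 genes on chromosome 6 and 1 of 14 on chromosome 1. H2BC11, which lies 248 bp from H2AC11, had none, and neither did H3C2, the nearest listed neighbour of H4C2, or H2BC10, that of H4C8. The tables list only called intervals, so a gene without a peak is not shown to be without RNA.

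The other 4 genes with a peak shared the HOS direction, and 3 of them the 143B direction. H4C3, the third H4 gene (Gene ID 8364, 26104002 to 26104221), had 580 and 658 counts in 143B NC and sgNAT10 and 1459 and 555 in HOS, shifts of -0.32 (-0.48 to -0.16) and -1.75 (-1.89 to -1.61). H1-2, which encodes the linker histone H1.2, had 485 and 536 counts in 143B and 1242 and 530 in HOS, shifts of -0.36 (-0.54 to -0.18) and -1.58 (-1.73 to -1.44). For these genes the raw 143B count was higher in the library labelled sgNAT10 and the scaled value lower, and with library totals alone the 143B shift of H4C3 was 0.03. H3C14, an H3.2 gene on chromosome 1 (149840862 to 149841075), had the most counts of the 7, with 5287 and 3939 in 143B and 10828 and 3483 in HOS, shifts of -0.93 (-0.99 to -0.87) and -1.99 (-2.05 to -1.94). H3C14 has a near-identical copy, H3C15, in an inverted duplication nearby, and H3C15 had no peak, so reads of the copies may have been pooled or split and the H3C14 value is uncertain. How multi-mapping reads were counted was not given in the sources used here, which bears on the other histone genes too, since members of a family resemble each other.

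H2BC12, an H2B gene, went the other way in 143B. Its counts in the 143B pair were 73 (NC) and 202 (labelled sgNAT10), and in the HOS pair 188 and 80, shifts of 0.96 (0.57 to 1.37) and -1.58 (-1.99 to -1.20). Its annotated span of 8566 bp is far longer than that of the other 6, and its peak (27138376 to 27138506) lay 8352 bp from the start and 83 bp from the finish. Position thus set it apart from the others, whose peaks lay inside genes of 388 to 731 bp. Of the 7 genes, 7 were lower by 2-fold or more in HOS (12.8% of all gene sums) and 1 in 143B (17.7%), and 6 were lower in both lines, where 21.8% of all gene sums were. Under library totals alone these counts were 5 (3.44% of all gene sums), 0 (11.9%) and 5 (7.52%). The 143B count was 3 under DESeq2-type factors (19.3%) and 0 under upper quartile factors (13.9%). The medians of the 7 were -0.71 and -1.75. With edgeR, adjusted p-values were 0.981 to 0.985 over the 7 peaks.

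Where peaks lie along their genes was measured beside these values, with strand taken from the RefSeq promoter table. Of 883 protein-coding peaks of mean count 50 or above within 500 bp of the gene finish only, the median shift was 0.81 in 143B and -0.69 in HOS, and 77.1% had a positive 143B shift beside a negative HOS shift, as H2BC12 had. The 191 such peaks within 500 bp of the gene start only had medians of -1.23 and -0.33, and the 4055 farther than 500 bp from both had -0.91 and -0.05. The member shifts of -1.21 to -0.71 in 143B lay near those of peaks away from the finish. In HOS, where the members had -2.01 to -1.71, 17.3% of the peaks near a start and 29.1% of those near a finish were lower by 2-fold or more. The genes of the members are so short that their peaks lie within 500 bp of both ends. Only 7 peaks of other protein-coding genes of at most 1000 bp had a mean count of 50 or more, with medians of 0.22 and -0.16 and 2 of 7 lower by 2-fold or more in HOS. The part of peak position in the histone values was not tested.

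Replication-independent histone variant genes did not share 1 direction. Of 15 listed, 4 had gene sums, with medians of 0.81 in 143B and -0.53 in HOS. The HOS median turned to 0.05 under library totals alone. H1-10, a linker histone gene, had 142 and 348 counts in 143B and 344 and 514 in HOS, shifts of 0.79 (0.51 to 1.08) and 0.22 (0.02 to 0.42), with the HOS value smaller than the -0.28 that scaling without the rRNA block adds.

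The 2 core variant genes were lower in HOS. H2AZ1, which encodes H2A.Z, had 222 and 924 counts in 143B and 436 and 228 in HOS, shifts of 1.55 (1.34 to 1.77) and -1.29 (-1.53 to -1.06). H3-3A, which encodes H3.3, had 236 and 196 counts in 143B and 618 and 283 in HOS, shifts of -0.77 (-1.05 to -0.49) and -1.48 (-1.69 to -1.28). In edgeR on gene sums these 3 genes had adjusted p-values of 0.986 to 0.997, and 0 of 8060 gene sums (0.00%) passed, with 300 at an unadjusted p under 0.05. The peak of H2AX also overlaps DPAGT1 and was given no gene, with shifts of -0.42 (-0.60 to -0.25) and -1.44 (-1.61 to -1.28).

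Within a library, the count of H4C2 over that of H2AZ1, a ratio that does not depend on scaling, was 3.17 in 143B NC and 0.465 in 143B labelled sgNAT10, and 3.17 and 2.20 in HOS. Its log2 change was -2.77 (-3.04 to -2.49) in 143B and -0.53 (-0.80 to -0.26) in HOS. H2AC11 over H2BC12 changed by -1.90 (-2.32 to -1.49) and by -0.42 (-0.82 to -0.02). The H2AZ1 peak ended 7 bp and the H2BC12 peak 83 bp before the gene finish. Both ratios thus set a peak inside a short gene over a peak at the finish of a longer gene. The part of peak position in these ratios was not tested. As a share of all counts in protein-coding peaks, the 3 members went from 0.114% to 0.0864% in 143B and from 0.196% to 0.0552% in HOS.

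Factors that make, process and degrade histone mRNA mostly had positive shifts in 143B and negative ones in HOS. Of 32 listed genes 12 had gene sums, with medians of 0.70 and -0.84, and 9 had that pattern of signs, as did 26.8% of all gene sums. Of the protein-coding peaks within 500 bp of the gene finish only, 77.1% had it. The SNRPB peak ended 43 bp and 1 of the 2 SNRPG peaks 138 bp before the finish. The SNRPE and SNRPD3 peaks, with the same signs, ended 1099 and 2877 bp before it. The part of peak position in the values of this list was not tested. The count of 2-fold differences in HOS depends on scaling. In HOS 4 of 12 were lower by 2-fold or more (12.8% of all gene sums). That count was 0 under library totals alone (3.44% of all gene sums), with a median of -0.25. It was 9 without the rRNA block, where 1608 of 8060 gene sums were lower by that much. In 143B, under TMM factors, 3 of the 12 were higher by 2-fold or more, where 20.4% of all gene sums were. The 3 with the highest mean CPM were SNRPG and SNRPB, Sm proteins of spliceosomal particles and of the U7 particle, and SRRT, which links capped RNA to processing. SNRPG had shifts of 0.39 (0.28 to 0.51) and -0.80 (-0.92 to -0.68), SNRPB 0.82 (0.67 to 0.97) and -1.29 (-1.44 to -1.14), and SRRT -0.35 (-0.52 to -0.19) and -0.81 (-0.95 to -0.67). The 3 peaks summed for SRRT ran from -0.69 to 0.49 in 143B. SLBP itself, ZNF473, LSM10, LSM11 and NPAT, which act on histone genes or mRNAs alone, had no gene sum.

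Chaperones that carry histones to DNA were mostly lower in HOS and mixed in 143B. Of 25 listed 15 had gene sums, all 15 below 0 in HOS (48.6% of all gene sums) and 9 of them lower by 2-fold or more (12.8%), with a median of -1.09, and in 143B 7 were higher and 8 lower (44.0% of all gene sums lower), with a median of -0.05. NPM1, nucleophosmin, had shifts of -0.14 (-0.19 to -0.09) and -0.78 (-0.82 to -0.73). ANP32E, which removes H2A.Z, had -0.74 (-0.84 to -0.64) and -0.17 (-0.27 to -0.08), and NAP1L1 0.33 (0.20 to 0.47) and -0.37 (-0.48 to -0.25). Single peaks of these genes disagreed in 143B. Their shifts there ran from -0.98 to 0.58 for NPM1, from -1.97 to 1.47 for ANP32E and from -1.06 to 0.85 for NAP1L1. Under library totals alone 10 of 15 chaperone gene sums were below 0 in HOS (24.8% of all gene sums), 2 of them by 2-fold or more (3.44%). The HOS median was then -0.51. The 143B median turned to 0.30 under library totals, 0.16 under upper quartile factors, 0.02 without the rRNA block, 0.33 with the highest peak of a gene and 0.05 among genes with a mean count of at least 50.

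Genes of S phase DNA replication, with which histone mRNA normally runs, had 21 gene sums of 42 listed, with medians of 0.40 in 143B and -1.05 in HOS. In HOS 18 of 21 were below 0 (48.6% of all gene sums) and 12 were lower by 2-fold or more (12.8%), and in 143B 9 were below 0 and 12 above. Of the 21, 12 had a positive shift in 143B and a negative one in HOS (26.8% of all gene sums). Of the protein-coding peaks within 500 bp of the gene finish only, 77.1% had these signs. The peaks of PCNA, FEN1 and MCM7, with these signs, ended 53, 50 and 99 bp before the finish. That of GINS2, with the same signs, ended 1542 bp before it. The part of peak position in the S phase values was not tested. Library totals alone gave a HOS median of -0.47, with 15 genes below 0 (24.8% of all gene sums) and 4 lower by 2-fold or more (3.44%). POLE, a DNA polymerase subunit, had shifts of -0.89 (-1.07 to -0.72) and 0.13 (0.00 to 0.25). MCM3, of the replicative helicase, had -0.07 (-0.23 to 0.09) and -1.54 (-1.71 to -1.38). The 2 peaks summed for MCM3 disagreed in 143B, with 0.44 (0.24 to 0.65) and -0.98 (-1.26 to -0.71), and were both below 0 in HOS. The 12 POLE peaks ran from -2.18 to -0.33 in 143B. No gene of these 3 lists passed the edgeR test on gene sums. The part of the share of cells in S phase in the histone values was not tested.

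The genes whose profile over the 4 libraries was most like the mean of the 3 members were FSTL1, PPIF, H3C14, TSR1 and CAP1, by Euclidean distance between log2 CPM values centred on each gene's own mean, among 4748 genes with a mean count of at least 50. The distances were 0.057, 0.114, 0.136, 0.192 and 0.231, and the members themselves lay at 0.115 (H2AC11), 0.201 (H4C2) and 0.215 (H4C8) from their mean. FSTL1, a secreted glycoprotein gene, had 653 and 481 counts in 143B and 1295 and 458 in HOS, shifts of -0.94 and -1.85. PPIF, the mitochondrial cyclophilin gene, had shifts of -0.80 and -1.86. H4C3 ranked 52 and H1-2 ranked 60 in this order, and H2BC12 ranked 1454. The profile rests on 4 libraries, and likeness in it is a description.

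**Figure D4:**
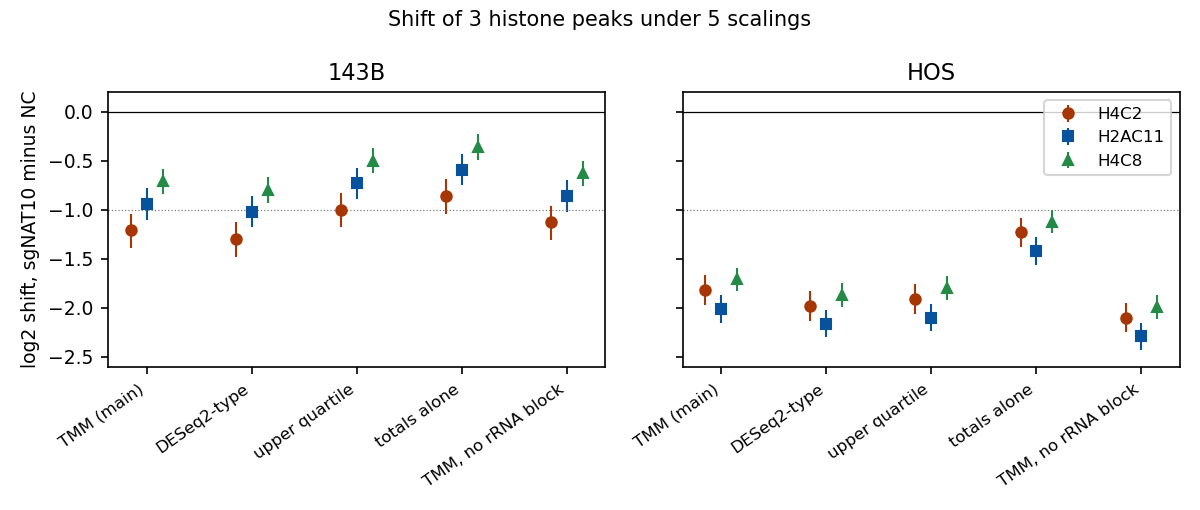
Log2 shift, sgNAT10 minus NC, of the 3 member peaks in 143B (left) and HOS (right) under 5 ways of scaling the libraries, with bars giving the 95% counting interval of the TMM value moved to each point. All points lie below 0. With library totals alone the shifts are -0.86, -0.59 and -0.36 in 143B and -1.23, -1.42 and -1.12 in HOS for H4C2, H2AC11 and H4C8.

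The scaling of the libraries set the size of these shifts but not their sign for the 3 members. Relative to TMM, library totals alone added 0.35 to every shift in 143B and 0.59 in HOS, and scaling without the rRNA block added 0.08 and -0.28. Under the 4 alternatives the shifts of H4C2 stayed between -1.30 and -0.86 in 143B and between -2.10 and -1.23 in HOS, those of H2AC11 between -1.02 and -0.59 and between -2.29 and -1.42, and those of H4C8 between -0.80 and -0.36 and between -1.99 and -1.12. Of the 3 members 3 were lower by 2-fold or more in HOS under each scaling tried. The share of all gene sums lower by that much was 3.44% under library totals alone, 14.7% under upper quartile factors and 16.4% under DESeq2-type factors, and without the rRNA block it was 1608 of 8060.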

How the data were processed

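The 4 acRIP libraries (NC and sgNAT10, in 143B and HOS) were analysed, and inputs were not used here. The deposited tables hold raw read counts per peak interval, made by the authors from alignments to GRCh38. The submitters' processing notes name FastQC, STAR, SAMtools and deepTools, and the peak caller, counter, strand setting and treatment of multi-mapping reads are not given in the sources used here. Another 7 columns of a table were blank.

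Peaks were assigned to the 1 gene they overlap in RefSeq (GRCh38.p14) and summed by gene. Counts were scaled by TMM over peaks kept by filterByExpr (minimum count 10, minimum total 15). Shifts are differences in log2 CPM (prior count 1), with exact binomial intervals. The edgeR (4.0.16) quasi-likelihood test used cell line as a block, and DESeq2 (1.42.0), limma (3.58.1) and other scalings and filters were alternatives. With a line left out, no model was fitted and the shift of the other line was taken. Scripts were tested on simulated data. Genes named from a list are the 3 with the highest mean CPM, and like genes are the 5 nearest profiles. Some genes these rules name are not reported here. The members and lists were chosen with earlier results of these data known. The labels name no separate cultures, so p-values measure only the spread between these samples.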

Additional observations from a re-analysis of the deposited data

Results flagged for a closer look

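Some genes named above moved in opposite directions in the lines, each line with 1 library per genotype, and these differences between lines were not tested. The HOS shift minus the 143B shift was -2.84 for H2AZ1, -2.53 for H2BC12, -2.35 for NAT10 and -2.10 for SNRPB. It was -1.19 for SNRPG and -0.70 for NAP1L1, and 1.02 for POLE, whose shift was negative in 143B. The opposite signs depend on scaling for 2 of them, NAP1L1 and POLE. The HOS shift of NAP1L1 was 0.22 under library totals alone. That of POLE was -0.03 under DESeq2-type factors and -0.15 without the rRNA block. The peaks of H2AZ1, H2BC12, NAT10 and SNRPB ended 7, 83, 101 and 43 bp before the gene finish. Of the protein-coding peaks within 500 bp of the finish only, 77.1% were positive in 143B and negative in HOS. The part of peak position in these differences was not tested.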

How the results depend on the processing

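Peaks called at an adjusted p of 0.05 by edgeR's quasi-likelihood test numbered 1 without a filter on low counts and 6 with a mean count of 100 or more. Under DESeq2-type size factors the HOS shifts were -1.98 (H4C2), -1.87 (H4C8) and -2.16 (H2AC11), the HOS median of the replication-dependent genes was -1.90, and 3 of these genes were lower by 2-fold or more in 143B. Under upper quartile factors the 143B shifts were -1.0, -0.50 and -0.73 in the same order, the 143B median was -0.50 and 0 genes were lower by 2-fold. Under library totals alone the 143B shifts were -0.86, -0.36 and -0.59 and the HOS shifts -1.23, -1.12 and -1.42, with medians of -0.36 and -1.16 and 0 genes lower by 2-fold in 143B and 5 in HOS; the H4C3 shift in 143B reversed to 0.03, the variant median in HOS to 0.05 and the H2BC12 edgeR fold change to 0.16. Without the rRNA block the HOS shifts were -2.10, -1.99 and -2.29 and the median -2.03. Without H2BC12, a choice made after seeing the data, the medians were -0.82 and -1.78. With a line left out no model was fitted, and the value was the within-line shift of the other line, as given above. These shifts, without 143B and then without HOS, were -1.82 and -1.21 for H4C2 and -2.01 and -0.94 for H2AC11. For H4C8 they were -1.71 and -0.71, and for H2BC12 -1.58 and 0.96. Without cell line as a block, edgeR's quasi-likelihood test called 0 peaks (499 at an unadjusted p under 0.05), with fold changes of -1.60 (H4C2), -1.61 (H2AC11) and -1.32 (H4C8). With so few libraries, counting intervals do not cover variation between cultures.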
